A study of Mus musculus with 48 samples.

Results

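Small leucine-rich proteoglycans are secreted matrix proteins with a core of leucine-rich repeats, many of which carry chondroitin, dermatan or keratan sulfate chains. They bind fibrillar collagens and set fibril spacing, and several hold growth factors of the TGF-β family or act on receptor tyrosine kinases. In brain they are known above all from meningeal and perivascular fibroblasts, and decorin (Dcn) is also found in some neurons. Members were 8 genes of this family, taken by symbol from the Ensembl identifiers of the RNA tables: Dcn, Ogn, Bgn, Fmod, Lum, Prelp, Omd and Aspn, of 47569 genes listed in both tables. Dcn and Ogn were chosen by their lower RNA level in these cKO libraries, so their cKO values are descriptions with no test. The other 6 members were taken as relatives of that pair.

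The mice were C57BL/6J adults of 4 to 6 months. The cKO group was a conditional knockout of Setd1b, which encodes a catalytic subunit of a complex that methylates histone H3 at lysine 4 (H3K4), and the other group is labelled Control. The alleles, the Cre driver and the cells it acts in are not given in the sources used here, nor whether replicates are separate animals, so each p-value measures the spread between libraries. RNA was sequenced from hippocampal CA neurons (3 cKO, 3 Control) and from whole CA tissue (6 cKO, 6 Control), and chromatin of sorted neuronal nuclei was sequenced for H3K4me3 and H3K4me1 (4 cKO and 4 Control each), H3K27ac (4 cKO, 3 Control) and H3K9ac (3 cKO, 4 Control).

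Neuron RNA libraries held 55.7 to 69.1 M gene counts and whole CA libraries 14.9 to 20.1 M. Oligodendrocyte markers summed to 127 to 148 CPM (counts scaled to library size) in neuron RNA and 3945 to 5840 CPM in whole CA RNA, and mitochondrial genes took 0.00814% to 0.0144% against 3.41% to 7.05% of counts. Setd1b counts over the whole gene were not lower in libraries labelled cKO (neuron RNA 64.6 CPM ± 6.16 (SD, n = 3) against 54.5 ± 9.62 (SD, n = 3); whole CA RNA 59.4 ± 6.29 (SD, n = 6) against 39.6 ± 8.68 (SD, n = 6)). Counts over a whole gene do not resolve a deleted exon, and every direction below rests on the labels.

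The members sit in a few clusters. In the GRCm38.p6 annotation Dcn (chr10:97479500-97518163) and Lum (chr10:97565501-97572703) share a stretch of chromosome 10 with the related genes Kera and Epyc. Aspn (chr13:49544443-49567565), Omd (chr13:49582462-49592612) and Ogn (chr13:49608015-49624501) lie in a row on chromosome 13 beside a further relative, Ecm2 (chr13:49504810-49532789). All of that row lies inside the span of Cenpp (chr13:49464025-49652950), a centromere protein gene read on the other strand. Prelp (chr1:133910304-133930102) and Fmod (chr1:134037254-134048280) are neighbours on chromosome 1, and Bgn (chrX:73483601-73495936) stands apart from other members.

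RefSeq start tables of build GRCm38.p6 matched 6 of the 8 members; Dcn and Lum were not matched. Below are the 250 bases before the start of Ogn and Ecm2, which were lower in cKO neuron RNA, of Bgn, a member whose groups overlapped, and of Cenpp, whose span encloses the Ogn cluster. They are shown because the H3K4me3 marks described later are read against gene starts. Sequences run 5′ to 3′ along the gene, and capitals mark the dinucleotide CG, which reads the same on both strands and cannot overlap itself.
Ogn (chr13:49607765-49608014, plus strand): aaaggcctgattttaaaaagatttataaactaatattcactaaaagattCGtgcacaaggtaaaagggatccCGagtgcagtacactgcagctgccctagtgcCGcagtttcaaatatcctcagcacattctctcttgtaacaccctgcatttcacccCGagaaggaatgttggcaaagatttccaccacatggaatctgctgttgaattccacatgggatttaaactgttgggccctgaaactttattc
Ecm2 (chr13:49504560-49504809, plus strand): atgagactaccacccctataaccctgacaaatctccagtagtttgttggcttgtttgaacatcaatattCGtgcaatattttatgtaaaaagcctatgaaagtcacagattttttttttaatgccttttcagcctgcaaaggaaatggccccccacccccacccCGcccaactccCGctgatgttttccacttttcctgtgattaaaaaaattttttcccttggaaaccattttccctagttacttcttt
Bgn (chrX:73483351-73483600, plus strand): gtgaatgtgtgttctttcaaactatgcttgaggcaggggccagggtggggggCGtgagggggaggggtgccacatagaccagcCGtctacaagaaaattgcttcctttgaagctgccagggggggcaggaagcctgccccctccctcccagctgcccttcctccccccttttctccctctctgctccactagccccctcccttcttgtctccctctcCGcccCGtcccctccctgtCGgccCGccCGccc
Cenpp (chr13:49652732-49652981, minus strand): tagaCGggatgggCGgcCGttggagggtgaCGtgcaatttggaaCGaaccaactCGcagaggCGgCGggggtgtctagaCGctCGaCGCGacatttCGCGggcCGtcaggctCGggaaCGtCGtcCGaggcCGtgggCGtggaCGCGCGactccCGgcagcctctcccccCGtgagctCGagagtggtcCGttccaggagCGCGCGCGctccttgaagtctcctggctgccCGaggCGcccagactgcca
Ogn held 4 CG in these bases, and 44.4% of all 32851 start windows in the table held as many or fewer. Ecm2 held 3 CG (37.8%) and Bgn 7 (57.0%), against a median of 6, while Cenpp held 34 (97.0%). Among members not printed, Omd held 1 CG (18.8%), Aspn and Fmod 2 each (29.03%) and Prelp 5 (49.6%). At least 1 CG was present in 92.1% of all start windows, so its presence sets no member apart.

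Dcn encodes decorin, which coats collagen fibrils and binds TGF-β and several receptor tyrosine kinases. In neuron RNA the Control libraries held 39.1, 40.8 and 47.7 CPM and the libraries labelled cKO 9.80, 12.6 and 11.4 CPM. All 3 cKO libraries lay below all 3 Control libraries. The mean was 42.5 CPM ± 4.56 (SD, n = 3) in Control and 11.3 ± 1.40 (SD, n = 3) in cKO, a log2 fold change of -1.92 (SE 0.12), or 3.77-fold lower. Whole CA RNA gave the same order: Control libraries ran from 45.8 to 82.2 CPM with a median of 64.5, and the cKO libraries from 10.96 to 16.2 CPM with a median of 14.7. Again the groups did not overlap. The log2 fold change there was -2.25 (SE 0.13), or 4.75-fold lower, and it was -2.29 over replicates 1 to 3 and -2.20 over replicates 4 to 6, which the file names place on different sequencing lanes. A lower level in a bulk sample can come from fewer cells of a type or from less RNA per cell, and these cannot be told apart here.

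**Figure D1:**
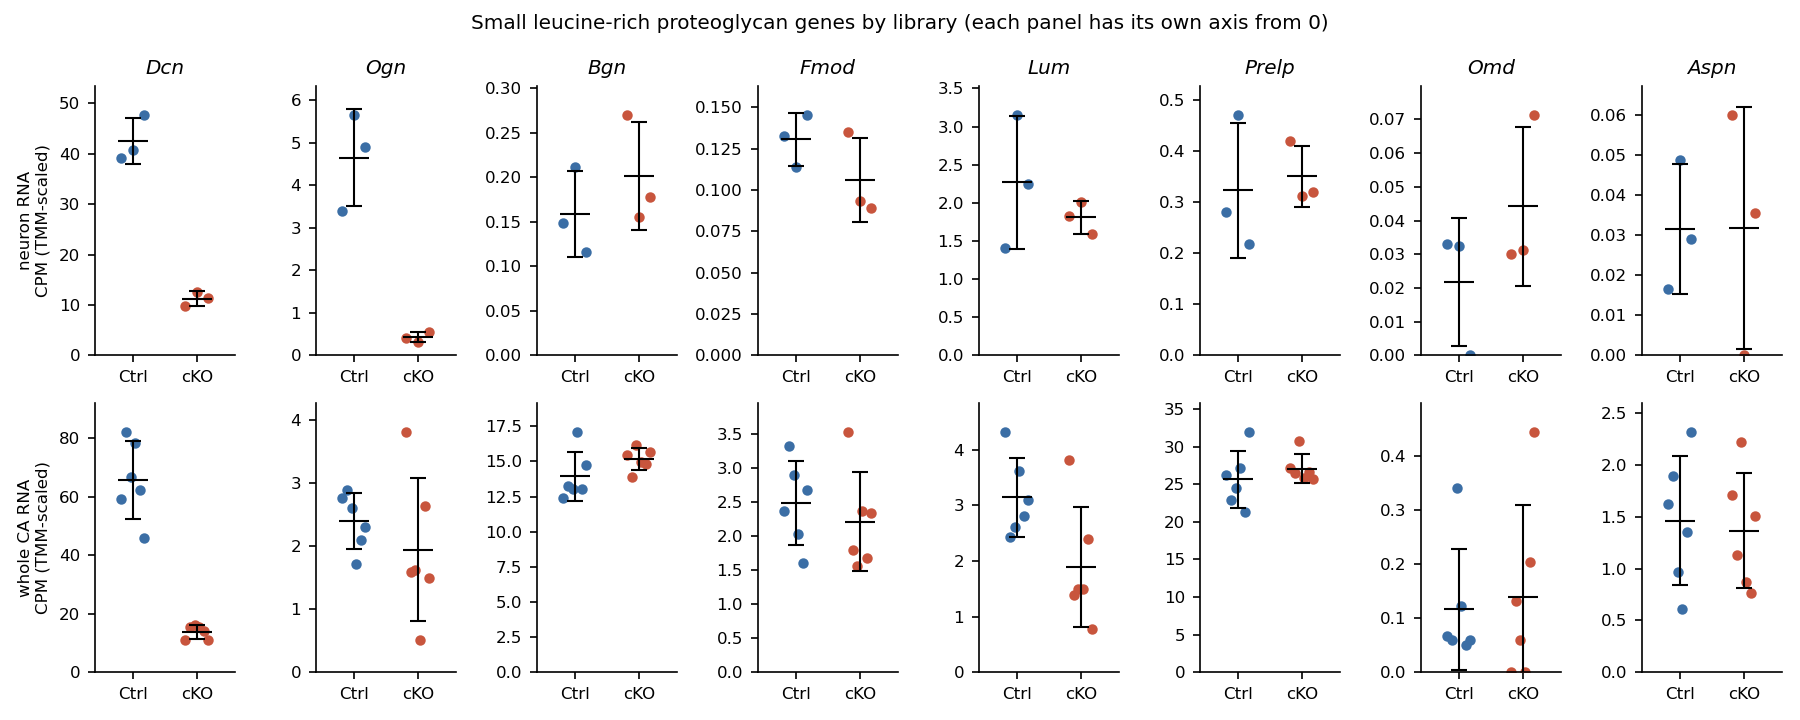
CPM of each member in every library, neuron RNA above and whole CA RNA below, Control in blue and cKO in red, with the mean and SD in black; each panel has its own linear axis from 0. Dcn separated the groups in both materials and Ogn in neuron RNA, and the groups overlapped in all other panels.

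Ogn encodes osteoglycin (mimecan), a keratan sulfate proteoglycan of bone and connective tissue that takes part in collagen fibril assembly. Its neuron RNA levels were 3.41, 5.66 and 4.90 CPM in Control and 0.420, 0.312 and 0.553 CPM in cKO, that is 206 to 348 reads against 20 to 31. The groups stood far apart, with a log2 fold change of -3.45 (SE 0.25), or 10.9-fold lower. Whole CA RNA differed from this, as Control libraries ran from 1.72 to 2.90 CPM (median 2.46) and cKO libraries from 0.514 to 3.82 CPM (median 1.61). Both the highest and the lowest library there were cKO, and the log2 fold change was -0.30 (SE 0.30). Without cKO replicate 1, the highest library, it was -0.60. The cKO difference of Ogn was thus 3.13 log2 units more negative in neuron RNA than in whole CA RNA (SE 0.47), whereas that of Dcn was 0.34 less negative (SE 0.21). Whether counting used strand is not given in the sources used here, so reads of Ogn and of Cenpp could have been mixed. Cenpp itself held 2.62 CPM ± 0.290 in Control and 2.45 ± 0.167 in cKO neuron RNA (SD, n = 3), or -0.100 on the log2 scale (SE 0.14).

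None of the other 6 members was called in either material. Of all 8 members 5 passed the filter on low counts in neuron RNA, and 7 did in whole CA RNA, Dcn and Ogn among them in both. Calls are genes with an adjusted p under 0.05 in edgeR's quasi-likelihood test with Benjamini-Hochberg adjustment over all genes tested; the test called 2.75% of 19622 genes in neuron RNA and 4.17% of 15362 genes in whole CA RNA. At an unadjusted p under 0.05 the counts were 0 of 3 in neuron RNA and 1 of 5, Lum, in whole CA RNA. Over all genes tested they were 3379 of 19622 and 2410 of 15362. DESeq2 called 0 in both, giving Bgn no adjusted p in neuron RNA. The median log2 fold change of the members other than Dcn and Ogn was 0.13 for neuron and -0.11 for whole CA RNA, against 0.019 and -0.0027 over all genes tested.

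**Figure D2:**
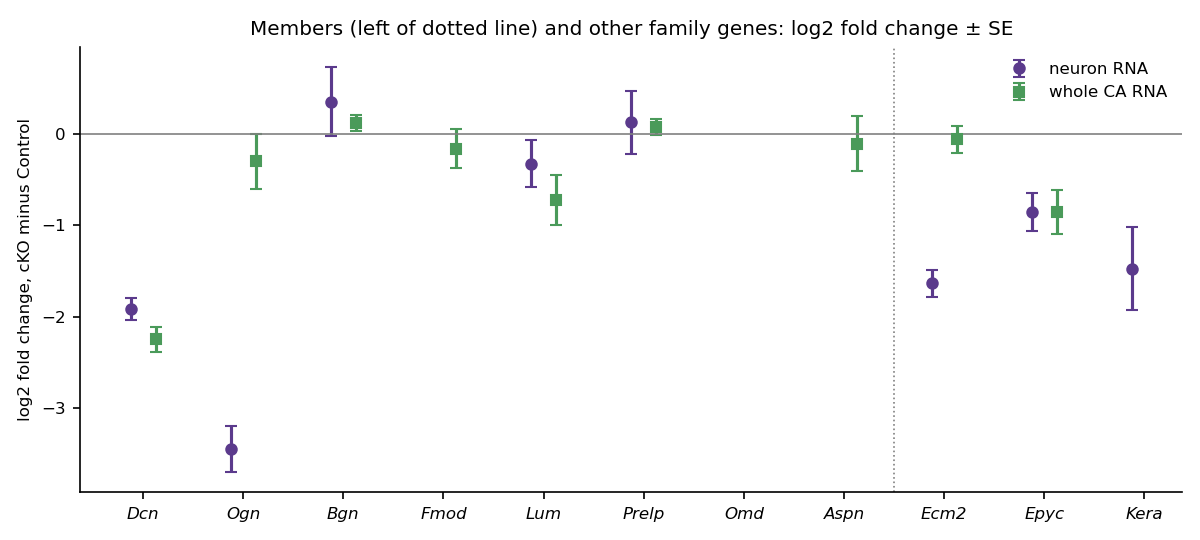
Log2 fold change of cKO over Control with its standard error for members (left of the dotted line) and for Ecm2, Epyc and Kera, circles for neuron RNA and squares for whole CA RNA; genes that did not pass the filter have no point, and Kera passed it through Control alone. Dcn lay at -1.92 and -2.25, Ogn at -3.45 and -0.30, Ecm2 at -1.63 and -0.059 (neuron RNA first), and Bgn and Prelp lay above 0 in both.

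Lum encodes lumican, the keratan sulfate proteoglycan that keeps corneal collagen fibrils evenly spaced. Its neuron RNA levels were 1.41, 3.15 and 2.25 CPM in Control and 1.83, 2.01 and 1.59 CPM in cKO, and the cKO values lay inside the Control range. The log2 fold change was -0.33 (SE 0.26, adjusted p = 0.556 by edgeR). In whole CA RNA, Control libraries ran from 2.43 to 4.32 CPM (median 2.95) and cKO libraries from 0.779 to 3.82 CPM (median 1.496). There 5 of 6 cKO libraries lay below every Control library and 1, cKO replicate 1, lay above 5 of them. The log2 fold change was -0.72 (SE 0.27), and the edgeR adjusted p was 0.182. Without cKO replicate 1, singled out after seeing the data, it was -1.03 with an edgeR adjusted p of 0.0183. That library also held the highest cKO level of Ogn (3.82 CPM) and Fmod (3.53 CPM). Its fibroblast and leptomeninges markers, members left out, summed to 181 CPM, against 148 to 164 CPM in the other cKO libraries and 146 to 181 CPM in Control. Their part in the Lum values was not tested.

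Bgn encodes biglycan, the closest relative of decorin, which carries chondroitin or dermatan sulfate chains. Whole CA levels were 12.4 to 17.1 CPM in Control (median 13.2) and 13.9 to 16.2 CPM in cKO (median 15.2), and all cKO values lay inside the Control range. The log2 fold change was 0.12 (SE 0.086, adjusted p = 0.565 by edgeR). In neuron RNA it was at 8 to 18 reads per library, with a log2 fold change of 0.35 (SE 0.38, adjusted p = 0.663 by edgeR). Prelp, a basement membrane-anchoring member without the usual sulfate chains, held 21.3 to 31.9 CPM in Control whole CA RNA and 25.6 to 30.7 CPM in cKO. Here too the cKO values lay inside the Control range, and the log2 fold change was 0.078 (SE 0.088, adjusted p = 0.758 by edgeR). In neuron RNA Prelp had 15 to 29 reads and a log2 fold change of 0.13 (SE 0.34, adjusted p = 0.879 by edgeR).

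Fmod, Aspn and Omd were scarce. Fmod encodes fibromodulin, a keratan sulfate proteoglycan of tendon and cartilage, and held 1.605 to 3.31 CPM in Control and 1.56 to 3.53 CPM in cKO whole CA RNA, with a log2 fold change of -0.16 (SE 0.22, adjusted p = 0.810 by edgeR). In neuron RNA it had 5 to 10 reads per library and was not tested. Aspn encodes asporin, a chain-free member that binds TGF-β, and held 0.613 to 2.32 CPM in Control and 0.763 to 2.22 CPM in cKO whole CA RNA, with a log2 fold change of -0.11 (SE 0.31, adjusted p = 0.923 by edgeR). It had 0 to 4 reads in each neuron library. Omd encodes osteomodulin, known from bone, and had 0 to 4 reads in neuron and 0 to 8 reads in whole CA libraries, so it was tested in neither and a change of it was not detectable at this depth. Between sequencing lanes of whole CA RNA, the log2 fold changes of these low or flat genes moved around 0: Prelp was at 0.20 and -0.037, Fmod at -0.31 and 0.027, Aspn at 0.19 and -0.45, and Bgn at 0.23 and 0.023. Lum was negative in both, at -0.45 and -1.01. The cKO difference between materials was tested for Lum (0.40, SE 0.42). edgeR did not call it (adjusted p of at least 0.779), where 0.160% of 17523 genes were called. Its unadjusted p was not under 0.05, whereas that of 1421 of 17523 genes was. Bgn (0.24, SE 0.31), Prelp (0.066, SE 0.29), Fmod (-0.12, SE 0.50) and Aspn (0.14, SE 1.11) entered this fit, filtered over all 18 RNA libraries, through whole CA RNA alone. Their values are therefore descriptions with no test.

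Levels of the members in Control libraries of the 2 materials differed widely. This contrast was not used to choose any member, but its Control libraries are among those by which Dcn and Ogn were chosen. Their values here are therefore descriptions with no test. Lum, the other member that passed the filter of this fit in both materials, was called as lower in neuron RNA. In this comparison 83.0% of genes were called, 39.8% lower and 43.2% higher, so the sizes carry more than the calls. Bgn, Prelp, Fmod and Aspn entered this fit, filtered over all 18 RNA libraries, through whole CA RNA alone. Their direction was therefore set by the filter, and their values are descriptions with no test. Bgn was 97.4-fold lower in neuron RNA (log2 difference -6.61, SE 0.19) and Prelp 89.2-fold lower (-6.48, SE 0.19). These 2 estimates lie within their standard errors of each other. Fmod was 20.7-fold lower (-4.37, SE 0.33), and the estimate for Aspn, which rests on 1 to 3 reads per Control neuron library, was -5.54 (SE 0.56). Lum was 1.56-fold lower (-0.64, SE 0.29, adjusted p = 0.0488 by edgeR), a call lost in 12 of 18 fits that left out 1 library, with edgeR adjusted p up to 0.245 without neuron Control replicate 1. Dcn was 1.74-fold lower (-0.80, SE 0.15). Of Dcn, Lum and Ogn, only Ogn was higher in neuron RNA, by 1.72-fold (0.78, SE 0.29). Without neuron Control replicate 2 its log2 difference was 0.63. Isolation, sequencing run and cell content differed together between the materials and cannot be told apart.

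**Figure D3:**
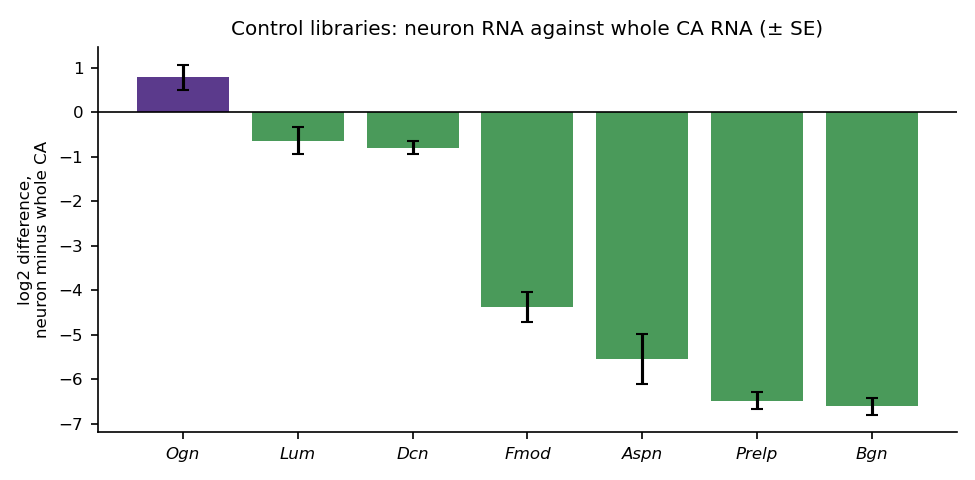
Log2 difference of Control neuron RNA minus Control whole CA RNA for the 7 members in the fit, with standard errors. Bgn, Prelp, Fmod and Aspn passed the filter of this fit through whole CA RNA alone. Ogn stood above 0, Lum and Dcn slightly below, and Fmod, Aspn, Prelp and Bgn between -4.37 and -6.61.

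Bgn and Prelp had similar profiles over the 18 RNA libraries. After centring within each material, the root mean square distance between their log2 CPM profiles was 0.14. Of distances to 14966 other genes this was the smallest for Bgn and also for Prelp. Neither gene was called for genotype in either material. In neuron RNA both profiles rest on few reads per library, 8 to 18 for Bgn and 15 to 29 for Prelp. For Dcn the 3 nearest profiles were those of the predicted or RIKEN-named genes Gm29771 (distance 0.26), 9430092D12Rik (0.27) and 4921539H07Rik (0.33), against a median distance of 1.10. Their log2 fold changes were -2.39, -2.05 and -1.78 in neuron RNA and -2.68, -2.80 and -1.86 in whole CA RNA. The nearest to Ogn were Cd38 (0.50), an NAD-consuming ectoenzyme, Slitrk6 (0.57), a neuronal transmembrane protein, and Npr1 (0.61), a natriuretic peptide receptor. For these 3 the log2 fold changes were -2.59, -1.81 and -2.87 in neuron RNA and -0.18, -0.81 and -0.65 in whole CA RNA. Ogn and Dcn lay 1.04 apart, and Ogn stood at place 2175 among genes ordered by distance from Dcn.

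Among 10 further family genes 8 were tested in neuron RNA and 1 of them, Ecm2, was called, where 2.75% of all genes were called. An unadjusted p under 0.05 was found for 5 of these 8, against 3379 of 19622 genes, and DESeq2 called 2. The 8 include Kera, which passed the filter through Control alone. Ecm2 encodes an extracellular matrix protein with leucine-rich repeats. It held 8.39 CPM ± 1.45 (SD, n = 3) in Control and 2.71 ± 0.186 (SD, n = 3) in cKO neuron RNA, and the groups did not overlap. The log2 fold change was -1.63 (SE 0.15, adjusted p = 0.00048 by edgeR), or 3.10-fold lower. The whole CA value was -0.059 (SE 0.15, adjusted p = 0.915 by edgeR), from 5.96 CPM ± 1.40 to 5.73 ± 0.874 (SD, n = 6). The difference between these effects was itself called (-1.56, SE 0.23, adjusted p = 0.00131 by edgeR). Like Ogn, Ecm2 separated the groups in neuron RNA and not in whole CA RNA, while Aspn and Omd, which lie between them, were too low in neuron RNA to compare. Like Ogn, it lies within Cenpp. Over whole CA libraries edgeR called 0 of the 6 family genes tested, 1 had an unadjusted p under 0.05 and DESeq2 called 1 (Epyc). Of all genes tested there, edgeR called 4.17%, and 2410 of 15362 had such an unadjusted p.

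On chromosome 10, Epyc encodes epiphycan, a cartilage proteoglycan, and was at 5.78 CPM ± 1.84 in Control and 3.199 ± 0.0432 in cKO neuron RNA (SD, n = 3), without overlap. Whole CA libraries held 2.94 CPM ± 0.564 and 1.64 ± 0.650 (SD, n = 6), and 5 of 6 cKO libraries lay below every Control library. Its log2 fold change was -0.85 in neuron RNA (SE 0.21, adjusted p = 0.0722 by edgeR) and -0.85 in whole CA RNA (SE 0.24, adjusted p = 0.0510 by edgeR). Both miss the threshold, and DESeq2 gave adjusted p of 0.00369 and 0.0120. Leaving out 1 library gave -1.08 (adjusted p = 0.00129 by edgeR, without Control replicate 1) to -0.64 in neuron RNA, with adjusted p up to 0.252 and a call in 1 of 6 fits. In whole CA RNA it gave -0.98 (adjusted p = 0.0341 by edgeR, without cKO replicate 1) to -0.69, with adjusted p up to 0.127 and a call in 2 of 12 fits. Kera, which encodes the corneal proteoglycan keratocan, had 10 to 16 reads in Control and 3 to 7 reads in cKO neuron RNA. It passed the filter there through Control alone, so its direction was set by the filter and no test is given.

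**Figure D4:**
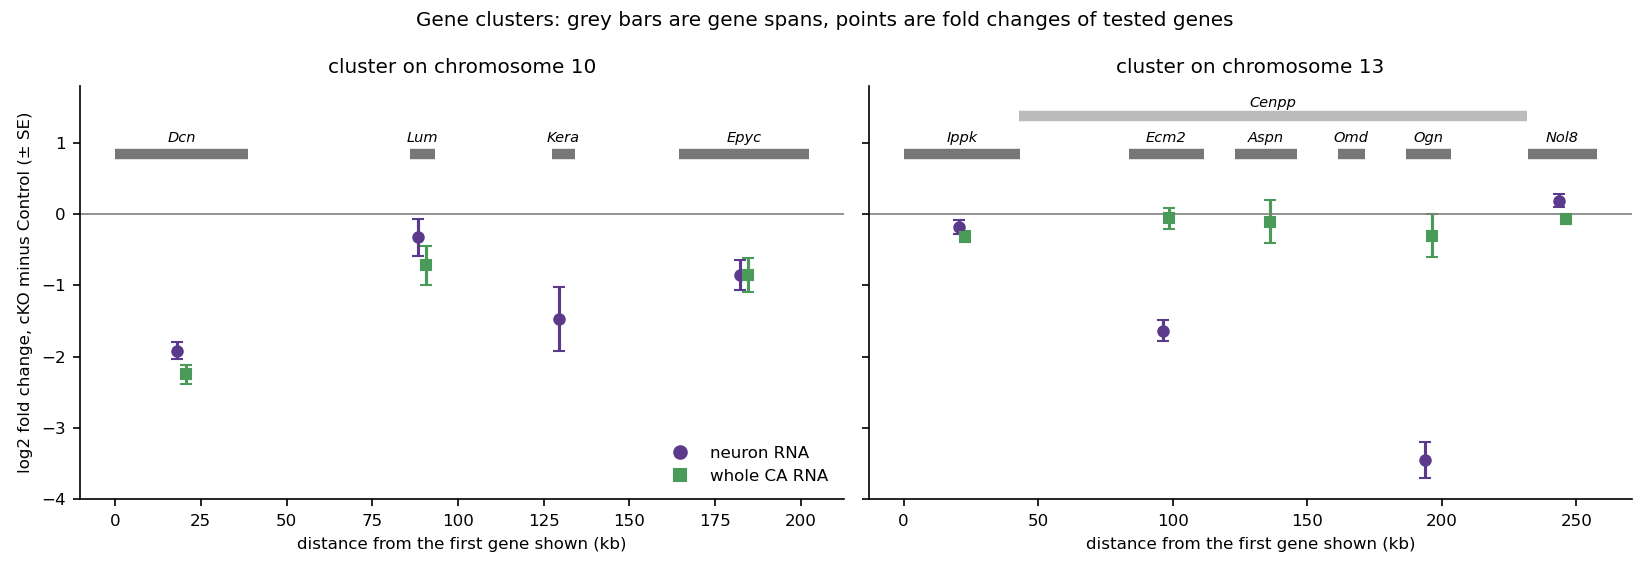
Log2 fold change with its standard error (circles neuron RNA, squares whole CA RNA) against distance in kb along the clusters on chromosomes 10 and 13; grey bars are gene spans, the light bar is Cenpp, whose own points are left out, and Kera passed the filter through Control alone. On chromosome 13 Ecm2 and Ogn stood at -1.63 and -3.45 in neuron RNA, while the flanking Ippk and Nol8 lay between -0.32 and 0.19.

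Other genes within 250 kb of a member numbered 77, of which 30 were tested for neuron and 22 for whole CA RNA. Of these, 2 were lower and 1 higher in neuron RNA, and 4 were lower and 0 higher in whole CA RNA. The test called 2.75% and 4.17% of all genes. Over all genes 393 calls were lower and 146 higher in neuron RNA, and 428 lower and 212 higher in whole CA RNA. Apart from Ecm2, Pnck, a calcium/calmodulin-dependent kinase gene near Bgn, was lower in both (log2 fold change -0.51 and -0.66, adjusted p = 0.0150 and 0.000236 by edgeR). Chit1, a chitinase gene near Fmod, was higher in neuron RNA (1.52, adjusted p = 0.0177 by edgeR). Adora1, an adenosine receptor gene (-0.22), Atp2b4, a calcium pump gene (-0.32), and Ippk, an inositol phosphate kinase gene (-0.32), were lower in whole CA RNA with edgeR adjusted p of 0.0160, 0.0421 and 0.0202. Nol8 and Iars, which follow Ogn on chromosome 13, had neuron values of 0.19 and 0.085 and were not called.

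Of 28 genes for enzymes that build or modify glycosaminoglycan chains, 25 were tested in neuron RNA and 1 fell: B4galt1, a galactosyltransferase, at -0.52 (SE 0.11, adjusted p = 0.0390 by edgeR), a call lost in 5 of 6 fits without 1 library. In whole CA RNA 0 of 26 were called. Among all genes the shares called were 2.75% for neuron and 4.17% for whole CA RNA. For neuron RNA 8 of the 25 enzyme genes had an unadjusted p under 0.05, against 3379 of 19622 genes. For whole CA RNA 2 of the 26 did, against 2410 of 15362 genes. DESeq2 called 2 of the list for neuron and 0 for whole CA RNA. The median log2 fold change of the list was -0.15 in neuron and 0.016 in whole CA RNA, against 0.019 and -0.0027 over all genes tested.

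Among 17 binding partners and receptors, Kdr fell in both materials. It encodes the VEGF receptor that decorin binds, and its log2 fold change was -0.51 (SE 0.11, adjusted p = 0.0411 by edgeR) in neuron RNA, where each of 6 fits without 1 library lost the call, and -0.40 (SE 0.076, adjusted p = 0.00415 by edgeR) in whole CA RNA. Wnt5a, a Wnt ligand, rose in neuron RNA (0.50, SE 0.10, adjusted p = 0.0352 by edgeR), a call lost in 4 of 6 such fits. Bmp1, the protease that trims procollagen and some proteoglycan precursors, rose in whole CA RNA (0.56, SE 0.075, adjusted p = 0.000108 by edgeR). The remaining tested partners, 12 of 14 in neuron and 14 of 16 in whole CA RNA, did not pass the test. That test called 2.75% and 4.17% of all genes. The list medians were -0.096 and -0.085, against 0.019 and -0.0027 over all genes tested.

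Of 21 matrix genes 20 were tested in each material, with 3 neuron and 4 whole CA calls, where 2.75% and 4.17% of all genes were called. All 7 calls were falls; over all genes 393 calls were lower and 146 higher in neuron RNA, and 428 lower and 212 higher in whole CA RNA. In neuron RNA the matrix calls were Bcan (-0.65), the brain proteoglycan brevican, Col12a1 (-0.62), a fibril-associated collagen, and Eln (-0.79), elastin, with edgeR adjusted p of 0.0419, 0.00675 and 0.0193. Leaving out 1 library lost the call of Bcan in 5 of 6 fits and of Eln in 2 of 6, with adjusted p up to 0.143 and 0.0879. The whole CA calls were Col6a1 (-1.07), a chain of the collagen that decorin and biglycan bind, Acan (-0.56), aggrecan, Col12a1 (-0.55) and Tnxb (-0.52), a tenascin, with edgeR adjusted p of 0.000581, 0.0442, 0.0404 and 0.0237. Here the calls of Acan, Col12a1 and Tnxb were lost in 10, 9 and 3 of 12 such fits, with adjusted p up to 0.0988, 0.0977 and 0.0635. The list medians were -0.32 and -0.22, against 0.019 and -0.0027 over all genes tested. Fibrillar Col1a1, Col1a2 and Col3a1, the usual collagen partners, were not called in either.

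Of fibroblast and leptomeninges markers, members left out, edgeR called 0 of 12 tested in neuron RNA and 0 of 15 in whole CA RNA. That test called 2.75% and 4.17% of all genes. An unadjusted p under 0.05 was found for 1 in each, against 3379 of 19622 and 2410 of 15362 over all genes tested. DESeq2 called 0 of the markers. Their summed level was 83.4 to 92.7 CPM in Control and 73.9 to 84.7 in cKO neuron RNA, and 146 to 181 against 148 to 181 CPM in whole CA RNA. In neuron libraries the defining marker Slc6a13 had 1 to 8 reads and Col1a2 9 to 19 reads.

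Summed levels of the dorsal CA1, ventral CA1, subiculum and dentate granule markers did not overlap between genotypes in neuron RNA, and all 4 sums overlapped in whole CA RNA. Sums of matrix, other family and choroid plexus genes did not overlap in neuron RNA either, so this was not particular to regional markers. Those of glycosaminoglycan enzymes, binding partners and fibroblast markers overlapped. With 3 against 3 libraries, groups separate more readily than with 6 against 6. The sum of excitatory neuron markers overlapped in both materials. That list included the transcription factor gene Neurod6, which fell in neuron RNA (-2.24, adjusted p = 2.96e-05 by edgeR) and whole CA RNA (-1.78, adjusted p = 1.48e-07 by edgeR), while Camk2a and Slc17a7 were not called. The 4 dorsal CA1 markers summed to 455 to 532 CPM in Control and 354 to 423 CPM in cKO neuron RNA, without overlap, and Wfs1 fell in both materials (-1.11 and -0.43), as did Ndst4 in whole CA RNA (-0.39). Ventral CA1 markers, Dcn left out, summed to 147 to 171 against 175 to 212 CPM in neuron RNA, without overlap and in the other direction. Among them Nnat rose in both materials (0.44 and 0.42) and Trhr fell in whole CA RNA (-1.40). Dentate granule markers summed to 182 to 215 against 125 to 161 CPM in neuron RNA, where Lct (-1.56), Dsp (-0.78) and C1ql2 (-0.76) fell; Lct (-1.86) and Dsp (-0.96) also fell in whole CA RNA. Choroid plexus markers summed to 26.8 to 29.3 against 13.05 to 15.03 CPM in neuron RNA and 31.1 to 37.8 against 18.4 to 21.97 CPM in whole CA RNA. That sum was mostly Kl, which fell in both (-1.07 and -1.04), whereas the defining marker Ttr had 3 to 9 reads per neuron library. Subiculum markers summed to 131 to 144 against 93.1 to 115 CPM in neuron RNA and 70.8 to 114 against 86.04 to 109 CPM in whole CA RNA. Of these 4 genes edgeR called 0 in either material, and DESeq2 called 1 in neuron RNA. Microglial markers summed to 262 to 322 against 233 to 257 CPM in whole CA RNA, where Cx3cr1 fell (-0.22), as did the astrocyte gene Aqp4 (-0.38). Leaving out 1 library lost the neuron calls of Nnat, C1ql2 and Dsp in 4, 3 and 5 of 6 fits, and the whole CA calls of Ndst4, Dsp and Cx3cr1 in 4, 9 and 11 of 12. Astrocyte, endothelial, mural, oligodendrocyte and inhibitory neuron sums overlapped between genotypes in both materials. The part of any of these lists in the values of Dcn and Ogn was not tested.

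Histone marks were not used to choose members. They were read as base pairs covered by deposited peaks, which the authors called in each library against 1 input library per genotype; that input therefore cannot be told apart from genotype. Since Dcn and Lum had no start entry, the whole gene span with 2 kb on either side was used, a window chosen after seeing the files. Across H3K4me3 libraries peaks covered 47.4 to 51.2 Mb in Control and 39.5 to 49.2 Mb in cKO, and the median log2 difference over all spans was -0.060.

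H3K4me3, the mark of active starts that SETD1B can place, covered less of Dcn in cKO. Peaks covered 1485, 1948, 1800 and 1414 bp in Control and 521, 695, 487 and 553 bp in cKO. Every library had a peak at the low-coordinate end of the gene, and every cKO peak was shorter than every main Control peak. The log2 difference was -1.41 (SE 0.13, limma adjusted p = 0.00052), and it ran from -1.50 to -1.33 when 1 library was left out. Of 3 members tested for this mark, Dcn was the 1 called, where 18.7% of 24309 spans were called and 17.4% were called as shorter. Ranked by the size of shortening, Dcn stood at place 206 of those spans. Peaks of both groups began 91 to 342 bp before the low-coordinate end, and cKO peaks stopped short of the inner stretch that all 4 Control libraries had covered. Further separate peaks, 937 to 1836 bp from that end, were called in 3 Control libraries and in no cKO library. Lane 2 held replicate 4 of each group (1414 and 553 bp), and the other libraries were on lane 1.

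**Figure D5:**
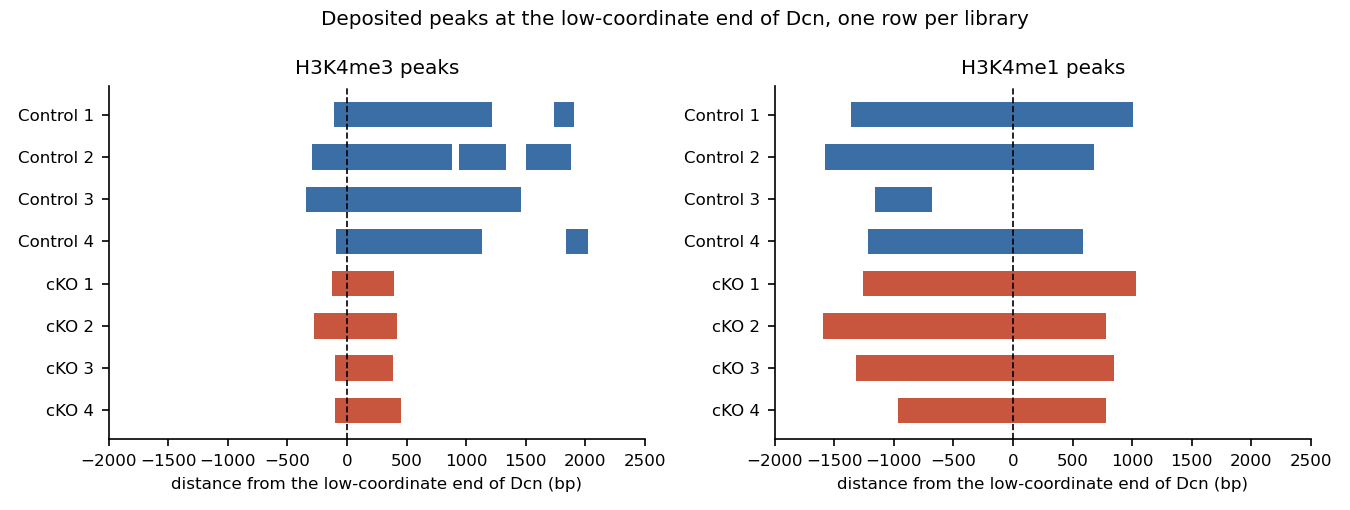
Deposited H3K4me3 (left) and H3K4me1 (right) peaks around the low-coordinate end of Dcn, by distance in bp from that end (dashed line), 1 row per library, Control in blue and cKO in red. H3K4me3 peaks of cKO libraries span 487 to 695 bp and lack the inner part seen in Control, while H3K4me1 peaks overlap between groups.

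The other marks over Dcn overlapped between genotypes. H3K4me1 covered 2621, 2260, 481 and 1804 bp in Control and 3326, 3567, 2166 and 1745 bp in cKO (log2 difference 0.72, SE 0.51, limma adjusted p = 0.460). H3K27ac covered 0, 723 and 503 bp in Control and 500, 838, 215 and 790 bp in cKO (0.78, SE 0.79). For this mark the span passed the filter of 3 libraries through cKO alone, so no test is given. H3K9ac covered 0, 239, 648 and 593 bp in Control and 836, 0 and 513 bp in cKO (0.083, SE 0.99). Here the span reached the filter of 3 libraries through Control alone, so no test is given. Differences of either sign lie within these spreads.

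Ogn carried little H3K4me3. Small peaks of 201, 257 and 405 bp were called in 3 of 4 Control libraries and none in the 4 cKO libraries, beginning 1164, 1052 and 1082 bp past the start shown above. The gene passed the filter of 3 libraries through Control alone, so no test is given. H3K9ac covered 417 bp of its span in 1 Control library and none in the others. H3K27ac covered 285 bp in 1 Control and 396 bp in 1 cKO library. Ecm2 had an H3K4me3 peak in 1 Control library of 172 bp and none in cKO. The CG-rich Cenpp start, by contrast, was covered for 2253 to 2443 bp in Control and 1886 to 2248 bp in cKO (start window, log2 difference -0.18, SE 0.059, limma adjusted p = 0.0886). Over its whole span the difference was -0.32 (SE 0.072). That span takes in the Ogn and Ecm2 peaks, which only Control libraries had, so no test is given for it.

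Among the other members, H3K4me3 was present over Fmod and Prelp in all 8 libraries and was not called as changed. Fmod had no peak at its start; an internal peak about 8.5 kb in covered 839 to 1020 bp in Control and 912 to 1142 bp in cKO (log2 difference 0.20, SE 0.085, limma adjusted p = 0.145). Without cKO replicate 1, the lowest cKO library, it was 0.27 with a limma adjusted p of 0.0334. Prelp spans were covered for 1262 to 1472 bp in Control and 1350 to 1740 bp in cKO (0.17, SE 0.10, limma adjusted p = 0.309), and its span with flanks takes in part of the adjoining gene Optc, 616 bp away. Lum had peaks of 157 and 186 bp in 2 Control libraries and none in cKO, and Bgn, Omd and Aspn had none.

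H3K4me1, a mark of poised and active regulatory regions, was called as changed at 0 of 6 member spans (limma; 3.54% of spans called), and 0 of them had an unadjusted p under 0.05. The span of Omd passed the filter of 3 libraries through cKO alone, so it is not counted and no test is given. It had a peak by its start in 1 Control library (408 bp) and in all 4 cKO libraries (508, 684, 393 and 705 bp). Bgn was covered for 1106, 1588, 1438 and 1108 bp in Control and 1103, 1601, 0 and 275 bp in cKO (-1.41, SE 0.84, limma adjusted p = 0.388). Lum was covered in all 8 libraries, for 279 to 1827 bp in Control and 340 to 2345 bp in cKO (0.68, SE 0.71, limma adjusted p = 0.630). For H3K27ac the spans of Fmod and Prelp were not called (limma, 0.607% of spans called), and neither had an unadjusted p under 0.05. Those of Lum and Dcn passed the filter of 3 libraries through cKO alone, so no test is given. Lum was covered for 222, 0 and 228 bp in Control and 397, 1071, 260 and 431 bp in cKO. For H3K9ac the spans of Fmod and Prelp were not called (limma, 0.861% of spans called), and neither had an unadjusted p under 0.05. That of Dcn reached the filter through Control alone and is not counted. Aspn had no peak of any mark in its span.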

How the data were processed

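RNA was counted per Ensembl gene in 18 libraries, and histone-mark peaks were listed for 30 chromatin libraries. The deposited RNA values are raw read counts made by the authors; the counter, and whether it used strand, are not given in the sources used here. Symbols came from the supplied gene-name table and matched 99.3% of neuron and 98.9% of whole CA identifiers. Peaks were called by the authors in each library with MACS 2.1.0.20140616 (2.1.1.20160309 for H3K4me3), per the file headers, at a q cutoff of 0.1 against 1 input library per genotype, with broad calling for H3K4me1 only and the larger dataset scaled to the smaller. Per the submitters' processing notes the build was mm10 (GRCm38). Per the file headers each peak carries a fold enrichment ratio and −log10 q-values; the text uses positions and lengths, and −log10 q only for a stricter threshold of 5.

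Counts were scaled by TMM factors, filtered with filterByExpr and tested with edgeR 4.0.16 (quasi-likelihood test, genotype only) in R 4.3.3, each material separately, and in 1 fit of all 18 libraries for contrasts between materials. DESeq2 1.42.0 was an alternative. CPM values use the TMM factors. For marks, limma 3.58.1 was run on log2(covered bp + 100) over windows or gene spans with a peak in at least 3 libraries. P-values were adjusted by Benjamini-Hochberg over all genes, windows or spans of a comparison, with calls at 0.05. Chromatin libraries held 24.4 to 41.6 M tags; the peak lists carry no read count per peak. Whole CA tables also held 5 rows that name no gene, all at 0. No pair of RNA libraries held identical values.

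The members and gene lists were chosen with earlier results of these data known. Named genes were all members, list genes called in the comparison discussed (at most 8 per list), genes within 250 kb of a member, and the 3 genes nearest in profile to Dcn and to Ogn. Profiles were log2 CPM centred within each material. Alternatives were other scaling factors, no filter, DESeq2, replicate blocks, lanes, other windows and leaving out each library. On simulated counts for 19360 genes of neuron RNA, the test recovered 73 of 97 genes changed by 1 log2 unit and 89 of 93 changed by 2, with 9 false calls. For 15239 genes of whole CA RNA it recovered 91 of 97 and 96 of 96, with 9 false calls.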

Additional observations from a re-analysis of the deposited data

Results flagged for a closer look

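For the members, 48 groups of 4 or 6 libraries were examined for a value far from the rest of its group, and 7 had one. With normally distributed values the rule flags about 1 in 20 groups. It always flags a group in which a single library had a peak, so that rate does not hold for such groups or for few reads. In whole CA RNA, Control replicate 3 held 0.340 CPM of Omd, with the next Control library at 0.123 CPM, both from few reads. In the same material, cKO replicate 3 held 30.7 CPM of Prelp, with the next cKO library at 27.1 CPM. Over Fmod, H3K4me3 peaks covered 912 bp in cKO replicate 1 and at least 1114 bp in the other cKO libraries. A single library had a peak where the rest of its group had 0 bp in 4 cases: H3K9ac over Lum in Control replicate 3 (173 bp), H3K27ac over Ogn in cKO replicate 3 (396 bp), H3K9ac over Ogn in Control replicate 4 (417 bp) and H3K4me1 over Omd in Control replicate 1 (408 bp).

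The cKO difference of Ecm2 was not the same in both materials: it was more negative in neuron RNA by 1.56 log2 units (a difference of -1.56, SE 0.23, edgeR adjusted p = 0.00131).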

How the results depend on the processing

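Dcn, Ogn and Ecm2 in neuron RNA, Dcn in whole CA RNA and the H3K4me3 difference over Dcn kept their direction under every alternative run for them. In neuron RNA, 539 genes were called, DESeq2 called 840, the replicate block 327, and leaving out 1 library 207 to 482. In whole CA RNA, 640 were called, 207 over replicates 1 to 3 only and 224 over replicates 4 to 6 only, where fewer samples entered, and 467 to 669 with 1 library left out. The effect differed between materials for 28 genes, for 69 with no filter and for 18 to 32 with 1 library left out; the Control contrast of materials gave 14194 to 14659 such calls. DESeq2 called 8 matrix genes, 4 binding partners, 2 glycosaminoglycan enzymes and 2 other family genes in neuron RNA, against 3, 2, 1 and 1. Replicate numbers did not pair libraries (correlations of deviations -0.057 to 0.29 for neuron, -0.064 to 0.20 for whole CA libraries and -0.075 to 0.083 in chromatin). With the replicate block, Lum (-0.80, adjusted p = 0.0399 by edgeR) and Epyc (-0.89, adjusted p = 0.0139 by edgeR) were called in whole CA RNA, and B4galt1, Kdr, Wnt5a and Eln lost their neuron calls, as did Nnat, Dsp and C1ql2, and Cx3cr1 in whole CA RNA.

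For H3K4me3, 2669 start windows were called, 267 within 1 kb, 1568 with the replicate block, 4539 over gene spans and 1694 to 2943 with 1 library left out. The counts for H3K4me1 were 441, 255, 46, 1105 and 287 to 491. For H3K27ac they were 74 in start windows, 0 with the replicate block, 148 over spans and 1 to 82 with 1 library left out. For H3K9ac they were 99, 56 within 1 kb, 0 with the replicate block, 211 over spans and 12 to 72. Start windows of H3K4me1 were called as shorter in 136 and longer in 305 cases, as shorter in 6 and longer in 334 with peaks of −log10 q of at least 5, and as shorter in 802 and longer in 303 spans.

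Signs turned only for values that were not called. These were, in whole CA RNA, Aspn (0.19) and Ecm2 (0.013) over replicates 1 to 3 only, and Fmod (0.027) and Prelp (-0.037) over replicates 4 to 6 only. With 1 library left out, the neuron value of Prelp ran from -0.10 to 0.49, and the whole CA values of Aspn from -0.30 to 0.074 and of Ecm2 from -0.14 to 0.049. The effect difference between materials then ran from -0.041 to 0.49 for Bgn, -0.34 to 0.061 for Fmod and -0.16 to 0.42 for Prelp. Covered lengths ran from -0.20 to 0.13 for H3K4me1 over Fmod, and for H3K27ac from -0.16 to 1.36 over Dcn, -0.50 to 0.052 over Fmod and -0.16 to 0.32 over Prelp. For H3K9ac they ran from -0.56 to 1.06 over Dcn and -0.010 to 0.32 over Prelp. The cause was not tested for any of these changes. Few reads limit Bgn and Prelp in neuron RNA and Omd in both materials, and covered lengths do not show changes in height. The fold enrichment that each peak carries was not tested.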
